A study of Mus musculus with 26 samples.

Results

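The genes described here carry vesicles through the secretory pathway and fuse them with the plasma membrane. They were taken from the array by symbol: every probe whose gene symbol begins with Rab and a digit, Arf and a digit, Vamp, Stx, Snap and a digit, Syt (which takes in Sytl) or Exoc. A total of 88 genes on 90 probes met this rule, of 8841 genes with a symbol on the 10500 probes of the array. Vamp5 and Rab10os had 2 probes each, which are kept apart below. After a filter on dim probes, 75 of the 90 probes (73 genes) entered the tests. The rule works on names and takes in a few genes with other roles: Snap91 is a clathrin adaptor of endocytosis, Rab10os is an RNA from the opposite strand of Rab10, and Rab5if and Rab11fip2 are partners of Rabs rather than Rabs.

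Rab and Arf proteins are small GTPases that sit on particular membranes and recruit the tethers, motors and coats that the vesicle needs. The vesicle then docks through tethers such as the exocyst, and a SNARE on the vesicle (a VAMP) pairs with SNAREs of the target membrane (syntaxins and SNAP proteins) to drive fusion. In acinar cells of salivary and lacrimal glands, granules packed with protein wait under the apical membrane, carry Rab3d, Rab27 proteins and VAMPs, and fuse when a nerve signal raises calcium or cyclic AMP. Synaptotagmins read that calcium. Meibomian glands secrete in another way: the lipid-filled cell itself disintegrates and becomes the product.

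The mice were BALB/c, an inbred albino strain, of both sexes, and 5 glands were taken: the submandibular, sublingual and parotid (salivary), the lacrimal, and the meibomian of the eyelid. Each of the 26 arrays held RNA pooled from 10 glands of 5 animals. Each sex had 3 pools (A, B and C) of submandibular, of lacrimal and of meibomian glands, and 2 pools (A and B) of sublingual and of parotid glands. The sources used here do not give the ages of the mice or any treatment. Whole glands were measured, so fewer cells of a type and less RNA per cell cannot be told apart.

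Values are scaled intensities with array medians between 0.928 and 0.955. They allow a probe to be compared between arrays, and not with another probe. An array's lowest 30% of probes count here as dim, a limit that lay between 0.281 and 0.561 in scaled intensity; the highest values came from both lacrimal C arrays, and it was at most 0.384 on the other arrays. The values separated the arrays into a set of 10 (submandibular B, sublingual A, parotid A, lacrimal B and meibomian A of both sexes, called set 1) and a set of 16 (set 2). The labels name no such sets. The lacrimal and meibomian lists of marker genes followed the labels as sums: the summed level of the 2 lacrimal acinar markers on the array was 513 to 835 in lacrimal glands and at most 5.78 elsewhere, and that of the 5 sebaceous and meibomian markers 242 to 356 in meibomian glands and at most 53.1 elsewhere. Among the sebaceous and meibomian markers, Mc5r went the other way, at 4.18 in lacrimal and 0.633 in meibomian glands. The 3 salivary acinar markers summed to 163 to 525 in the salivary glands, to 30.9 to 405 in lacrimal glands, which overlapped them, and to 3.50 to 4.96 in meibomian glands. The 3 granular duct markers summed to 369 to 738 in submandibular, 198 to 351 in sublingual, 140 to 368 in parotid and at most 93.5 in the other glands. Klk1b5 weighed most in this sum (325 in submandibular, 227 in sublingual and 222 in parotid glands). The others fell further in the same order of glands, Egf from 54.8 to 15.2 and 1.95 and Klk1b24 from 34.2 to 7.81 and 0.871. Other tissues were present as well. The 11 skeletal muscle markers summed to 69.6 to 336 in parotid and 254 to 461 in meibomian samples, against 2.18 to 28.3 in the other glands, and the 3 keratinocyte markers to 36.0 to 101 in meibomian samples against at most 5.78 elsewhere. Of the keratinocyte markers, Krt1 and Krt10 were at 29.2 and 27.7 in meibomian glands, but Lor was lower there (0.948) than elsewhere (1.35 to 1.97). The 5 smooth muscle and myoepithelial markers summed to 39.6 to 231 in submandibular, 49.4 to 187 in sublingual, 15.1 to 21.8 in parotid, 21.8 to 37.1 in lacrimal and 65.3 to 77.8 in meibomian glands. The 3 adipocyte markers were highest in parotid glands (99.2 to 324, against 3.49 to 129 elsewhere), and the 6 T cell markers in sublingual (11.5 to 20.5) and parotid glands (3.87 to 12.3), against 2.56 to 8.70 in the others. Of the T cell markers, Cd4 was instead highest in lacrimal glands (4.34, against 2.68 in sublingual glands). Of the 11 nerve and Schwann cell markers, 10 summed to 18.6 to 23.3 in submandibular, 15.7 to 25.5 in sublingual, 25.7 to 37.5 in parotid, 8.99 to 14.9 in lacrimal and 23.8 to 34.0 in meibomian glands. The other, Th, the enzyme that makes the precursor of noradrenaline, was at 141 to 216 in submandibular, 15.1 to 94.6 in sublingual and at most 8.0 in the other glands, and made up most of the sum of the list in submandibular glands. Among the 10, Pmp22 weighed most in the sum (6.19 in lacrimal to 24.5 in meibomian glands). Sox10 ran from 0.432 in meibomian to 12.5 in parotid glands. The members of this list did not share an order of glands. S100b was highest in meibomian glands (0.721), while Tubb3 was lowest there (0.326) and highest in lacrimal glands (0.922). Nefh and Nefm were dim in all 5 glands. The part of these tissues in the levels below was not tested.

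Promoters are shown because results below turn on these genes: Rab27a and Rab3d, granule Rabs that were high in lacrimal glands, and Rab32, the member with a very large parotid level. Each sequence is the 250 bases before a transcription start, from RefSeq (GRCm38.p6), of 70 member genes that the promoter table held. The windows were searched on both strands for 3 E-boxes: CATATG, the E-box bound by Bhlha15 (MIST1), a factor of acinar cells; CATGTG, bound by the melanocyte factor MITF, which reads CACATG on the other strand; and CACGTG, which MITF and USF factors share. The Rab27a window lies at chr9:73063898-73064147 on the plus strand, the Rab3d window at chr9:21918184-21918433 on the minus strand and the Rab32 window at chr10:10558208-10558457 on the minus strand. Capitals mark the matches, which only the first of the windows had.
Rab27a: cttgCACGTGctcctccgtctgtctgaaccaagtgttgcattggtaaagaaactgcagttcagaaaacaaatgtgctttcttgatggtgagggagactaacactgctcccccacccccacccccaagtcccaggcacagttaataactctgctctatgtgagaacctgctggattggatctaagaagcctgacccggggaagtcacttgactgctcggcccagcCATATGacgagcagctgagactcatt
Rab3d: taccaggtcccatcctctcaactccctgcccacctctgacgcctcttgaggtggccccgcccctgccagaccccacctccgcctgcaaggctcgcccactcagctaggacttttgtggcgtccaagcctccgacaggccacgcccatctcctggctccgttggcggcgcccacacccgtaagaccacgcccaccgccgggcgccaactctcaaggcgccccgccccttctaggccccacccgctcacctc
Rab32: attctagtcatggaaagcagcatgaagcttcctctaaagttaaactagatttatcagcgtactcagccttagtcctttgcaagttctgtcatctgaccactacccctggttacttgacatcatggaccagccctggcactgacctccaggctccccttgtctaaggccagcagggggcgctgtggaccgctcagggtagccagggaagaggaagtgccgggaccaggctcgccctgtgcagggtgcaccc

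In Rab27a the CATATG began at position -26 and the CACGTG at -246, counted back from the transcription start; the other of its 2 windows held no match. Of the 90 member windows, 1 held CATATG (1.11%, Rab27a alone), against 3.46% of 32851 windows of all genes. CATGTG was in 4 member windows (4.44%, Arf2, Rab13, Rab34 and Stx8) against 12.3% of all, and CACGTG in 11 windows of 10 genes (12.2%) against 6.02% of all. A match is a run of letters and not a measured binding site. On the arrays Bhlha15 itself was at 12.4 in lacrimal, 6.17 in parotid, 4.86 in submandibular, 3.99 in sublingual and 0.132 in meibomian glands (geometric means of scaled intensity), and the probe of Mitf did not pass the filter on dim probes.

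Most of these genes differed between glands, at about the rate of genes in general. By limma's moderated F test, 64 of the 75 probes (85.3%) differed between the 5 glands at an adjusted p under 0.05, against 80.6% of all probes tested, so the share is not a result about these genes. The median spread between the highest and the lowest gland mean was 1.29 on the log2 scale, against 1.42 over all probes, and the spread exceeded 1 in 68% of the members and 69% of all probes. A gland was then set against the mean of the other 4, with both sexes weighted equally, and called at an adjusted p under 0.05 and a log2 difference of at least 1. Submandibular glands had 6 members higher and 3 lower (12% of 75, against 12.3% of all probes). Sublingual glands had 4 higher and 2 lower (8% against 11.2%), and parotid glands 5 higher and 8 lower (17.3% against 17.1%). Lacrimal glands had 11 higher and 5 lower (21.3% against 20.2%). Meibomian glands had 9 higher and 16 lower (33.3% against 37.9%). Each of these shares is near its background, so what follows is about which genes differed and not about how many.

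**Figure D1:**
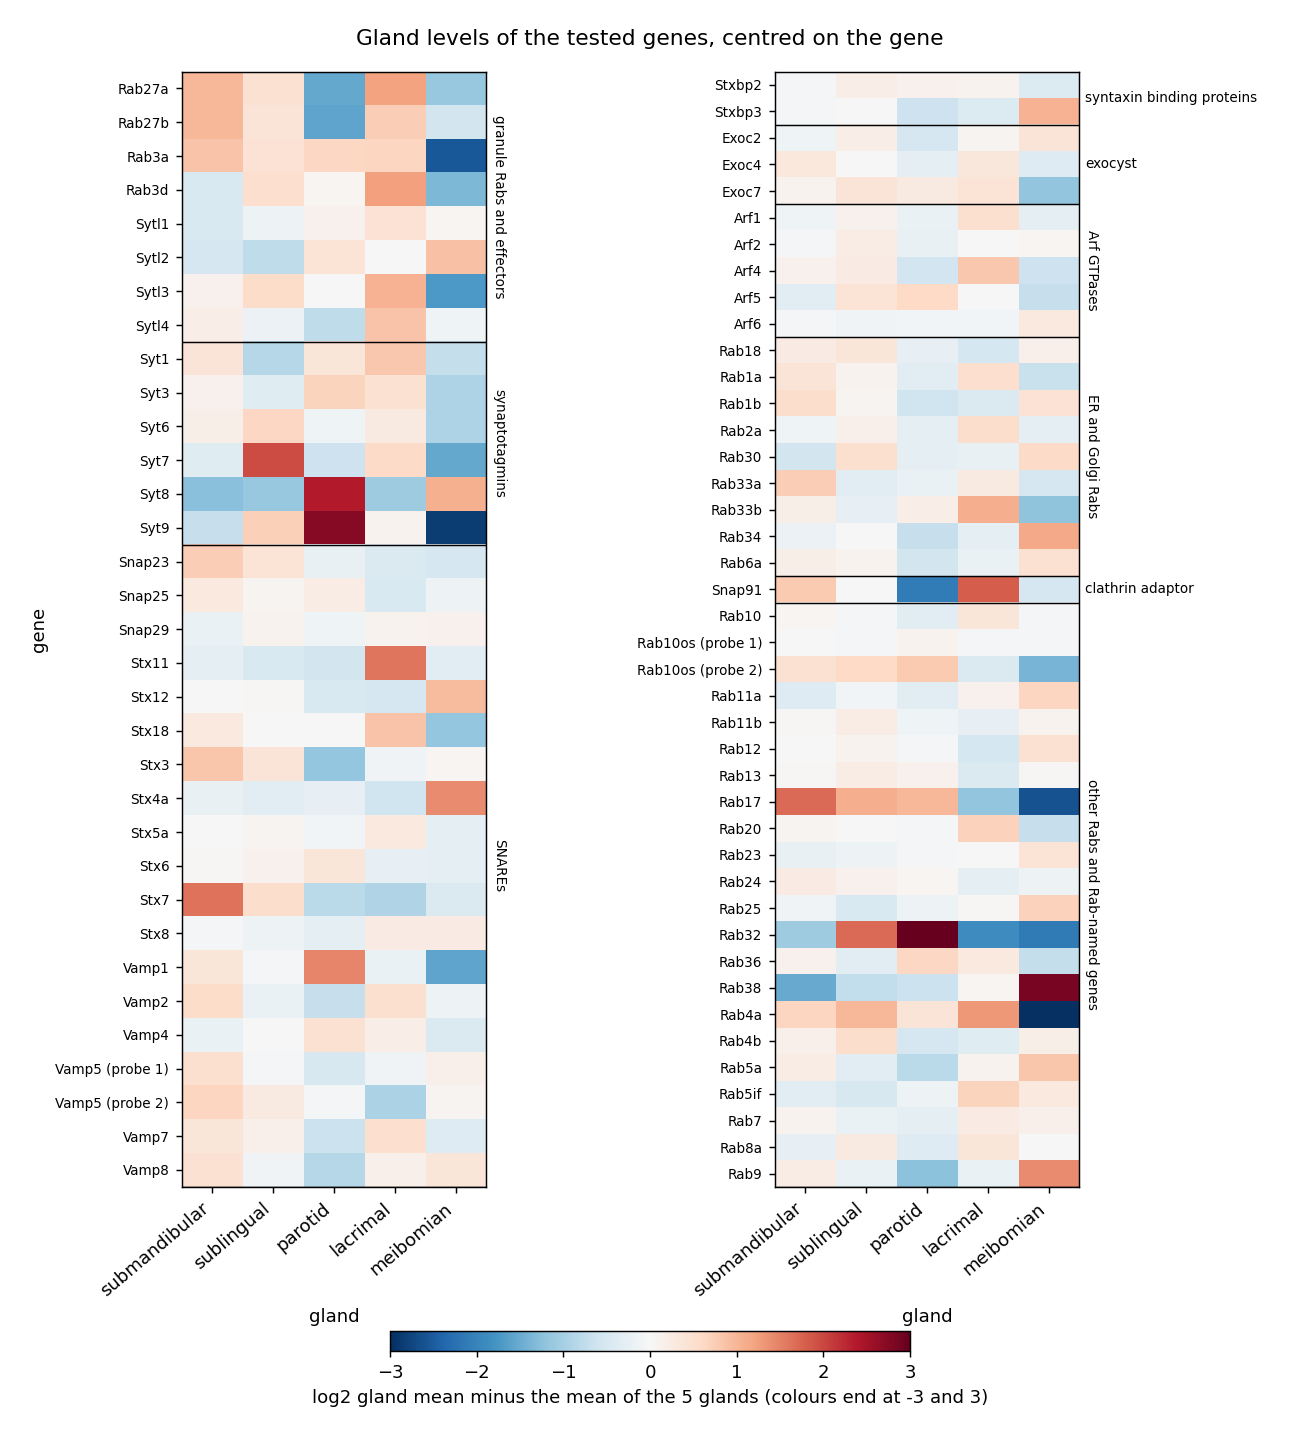
Heat map of the 75 tested probes by role. Colour is the log2 geometric mean of a gland minus the mean of the 5 glands for that probe (red above, blue below; 4 or 6 pools per gland). Rab32, Syt9 and Syt8 are red in the parotid column, Rab38 in the meibomian column, and Rab3a and Sytl3 are blue in the meibomian column.

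Among the Rabs and effectors of secretory granules, 11 probes were on the array and 8 were tested, and all 8 differed between glands. Their median difference was -1.06 in meibomian glands, where the median of all probes was -0.09, and 1.0 in lacrimal glands, where it was 0.12. In meibomian glands 4 of the 8 were lower (Rab3a, Rab3d, Rab27a and Sytl3), where 20.9% of all probes were, and 1 was higher (Sytl2). In lacrimal glands 4 were higher (Rab3d, Rab27a, Sytl3 and Sytl4), where 11.6% of all probes were. Of these, Sytl4 fell under the minimum of 1 without the male C array (0.95) or both lacrimal C arrays (0.93), and Sytl3 was at 0.87 in set 1 alone. In submandibular glands 3 were higher (Rab3a, Rab27a and Rab27b), in parotid glands 2 were lower (Rab27a and Rab27b), and in sublingual glands none was called.

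Rab3a, a Rab of regulated exocytosis best known from synaptic vesicles, had the widest range of this group. Its meibomian arrays read 0.286, 0.340 and 0.372 in females and 0.363, 0.281 and 0.319 in males. Submandibular arrays read 2.78, 2.87 and 4.66 in females and 3.18, 3.17 and 4.30 in males, and lacrimal arrays 3.13, 1.76 and 4.89 in females and 2.97, 1.72 and 5.16 in males. The sublingual arrays read 3.18 and 3.39 in females and 2.38 and 1.69 in males, and the parotid arrays 3.20 and 3.23 in females and 2.66 and 2.68 in males. Every meibomian array lay below every array of the other glands, among which no pair of glands differed past the threshold. The meibomian difference was -3.19 ± 0.20 (SE), a level 9.11-fold lower (adjusted p = 2.4e-11). Submandibular glands were called higher by 1.06 ± 0.20 (adjusted p = 0.000396), although this fell to 0.94 without the female C array and to 0.99 without the male C array or after quantile normalization, under the minimum of 1.

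Rab3d, the Rab3 of exocrine granules and a known target of Bhlha15, was at 2.62 in lacrimal, 1.60 in sublingual, 1.17 in parotid, 0.821 in submandibular and 0.440 in meibomian glands. In that order lacrimal and sublingual glands did not differ past the threshold (adjusted p = 0.131), nor did sublingual and parotid (0.488) or parotid and submandibular (0.328). Against the mean of the others, lacrimal glands were 2.88-fold higher (1.53 ± 0.26, adjusted p = 7.0e-05) and meibomian glands 3.22-fold lower (-1.69 ± 0.26, adjusted p = 1.0e-05). Arrays of set 1 read high in several glands: in the parotid gland they were at 1.73 and 1.87 and those of set 2 at 0.909 and 0.643.

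The Rab27 pair, which tether granules to actin and to the plasma membrane through Sytl and other effectors, was low in parotid glands. Rab27b read 0.740 and 0.785 in female and 0.750 and 0.409 in male parotid glands, below every array of the other 4 glands, of which the lowest was a meibomian array at 0.875. Its gland means were 3.90 in submandibular, 3.25 in lacrimal, 2.55 in sublingual, 1.33 in meibomian and 0.650 in parotid glands. The parotid level was 3.94-fold lower than the mean of the others (-1.98 ± 0.29, adjusted p = 1.5e-05) and the submandibular level 2.39-fold higher (1.25 ± 0.25, adjusted p = 0.000521). Submandibular, lacrimal and sublingual glands did not differ from one another past the threshold.

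Rab27a, whose promoter is given above, read 0.265 and 0.0828 in female and 0.338 and 0.421 in male parotid glands, and 0.253 to 0.395 in meibomian glands. The parotid and the meibomian arrays overlapped each other and lay below all other arrays, of which the lowest was a sublingual array at 0.559. The female parotid arrays were dim, so folds are bounds: lacrimal glands (1.57) were at least 2.56-fold above the mean of the others (adjusted p = 2.2e-05), submandibular glands (1.36) at least 2.13-fold (adjusted p = 0.000341), and parotid glands at least 2.46-fold below it (adjusted p = 1.2e-05). Meibomian glands were lower as well (-1.43 ± 0.23, adjusted p = 2.0e-05), with no fold, since a dim group stands on the other side.

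The Sytl proteins are effectors that bind Rab27 and membranes. Sytl3 was at 3.71 in lacrimal, 2.65 in sublingual, 1.97 in submandibular, 1.82 in parotid and 0.548 in meibomian glands. Every meibomian array of Sytl3 lay below every other array (4.45-fold lower, -2.15 ± 0.17, adjusted p = 6.6e-10), and lacrimal glands were 2.46-fold higher (1.30 ± 0.17), a difference of 0.87 in set 1 alone. Sytl4 was 2.10-fold higher in lacrimal glands (1.07 ± 0.15, adjusted p = 5.6e-06), which became 0.95 without the male C array. Sytl2 went the other way. Its meibomian arrays (0.911 to 1.11) lay above all others, which ended at 0.816, with a 2.14-fold difference (1.10 ± 0.13, adjusted p = 4.6e-07). Sytl1 was not called in any gland and ranged from 1.29 in submandibular to 2.39 in lacrimal glands.

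**Figure D2:**
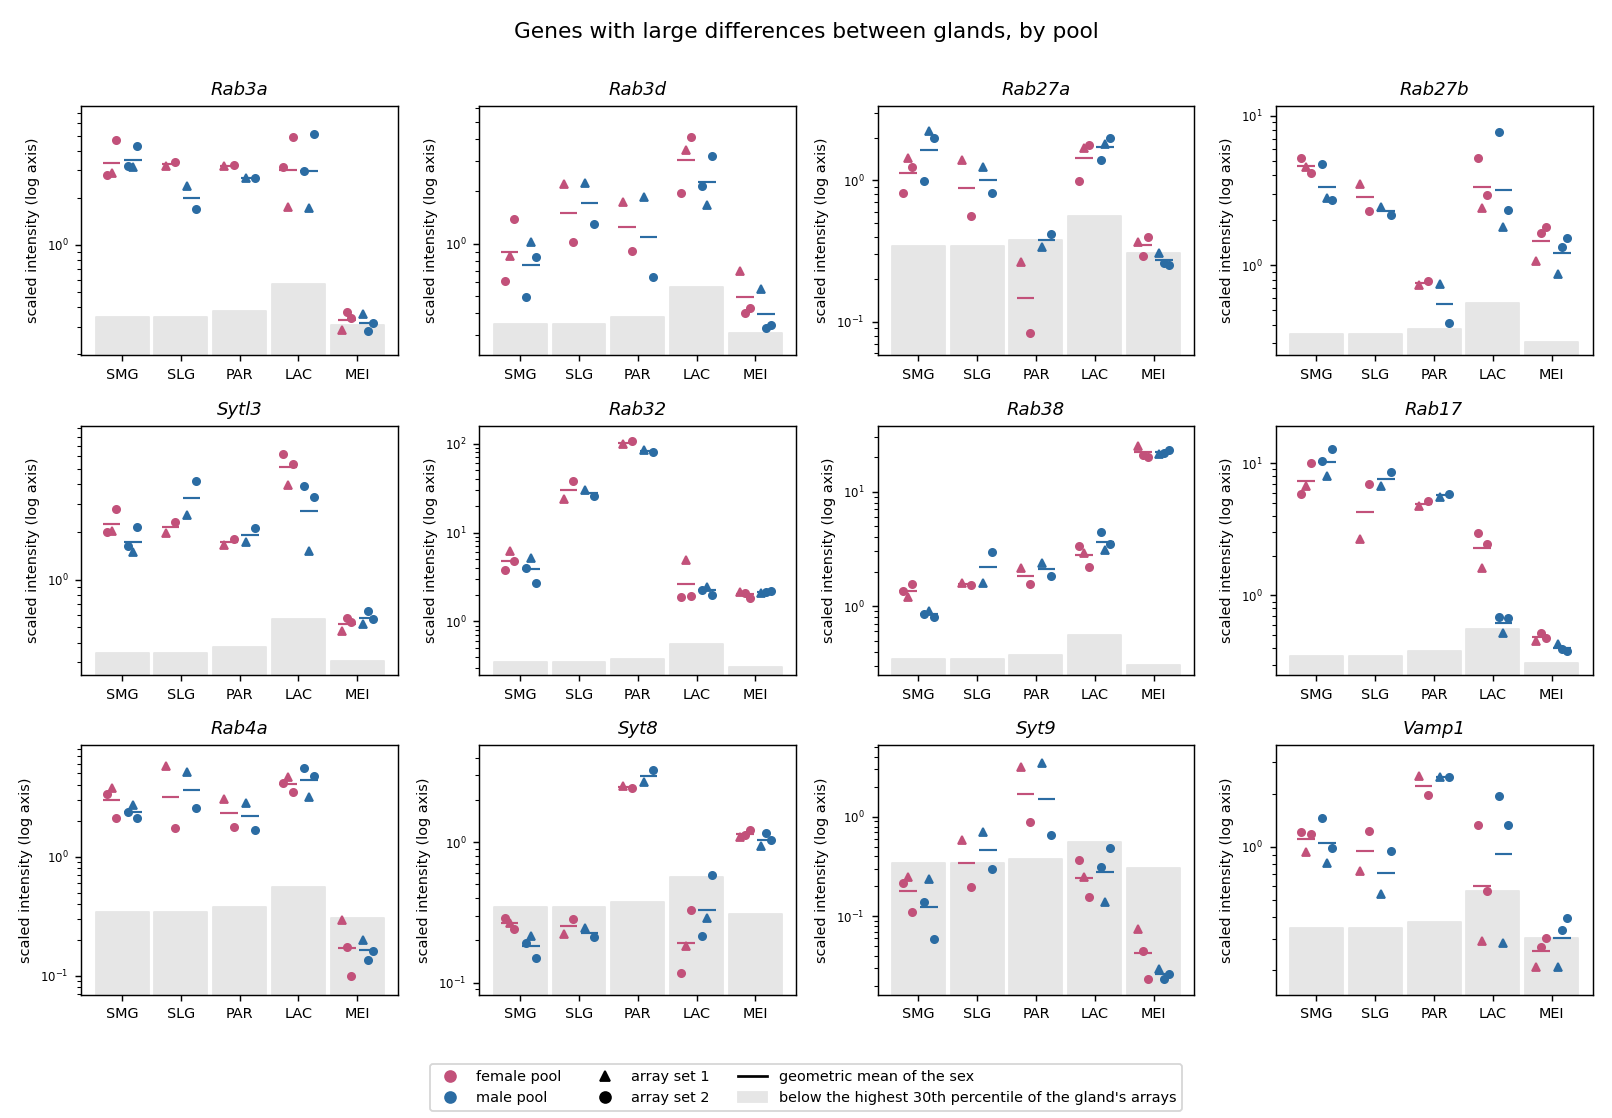
Scaled intensity (log axis) of 12 genes on every array. SMG, SLG, PAR, LAC and MEI stand for submandibular, sublingual, parotid, lacrimal and meibomian; each point is a pool, bars are geometric means of a sex, and the grey area ends at the highest dim limit among the gland's arrays. Meibomian points of Rab3a, Sytl3 and Rab4a lie below all others. Rab32 lies at 1.85 to 2.18 in meibomian, 1.89 to 4.97 in lacrimal and 80.4 to 106 in parotid glands.

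Synaptotagmins, the calcium sensors of exocytosis, were mostly dim: 13 were on the array and 6 passed the filter. Syt9, Syt8 and Syt7 passed it only through glands in which they were high, so their levels are given as a description and no test of them is quoted. The counts of calls by gland and the plot of gland differences still include them, and these calls are not read as results. Syt9 read 3.15 and 0.895 in female and 3.50 and 0.662 in male parotid glands. The higher value of each sex was the array of set 1. Sublingual arrays read 0.591 and 0.197 in females and 0.701 and 0.301 in males, again with the set 1 array higher, so that the sublingual and parotid glands overlapped. Syt9 was dim on every submandibular, lacrimal and meibomian array, and at the floor of 0.0234 on 2 meibomian arrays. Only the parotid gland was above the limit on every array of both sexes.

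Syt8, a synaptotagmin that lacks calcium binding, was above the dim limit in few glands. It read 2.51 and 2.42 in female and 2.69 and 3.27 in male parotid glands and 0.933 to 1.21 in meibomian glands, and was dim on every submandibular and sublingual array and on all but the male C array (0.579) of the lacrimal gland. Parotid arrays lay above meibomian arrays and these above all others. The parotid level was at least 5.92-fold and the meibomian level at least 1.89-fold above the mean of the others.

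Syt7, a high-affinity sensor of slow granule and lysosome exocytosis, passed the filter only through male sublingual glands. It read 0.610 and 0.623 there and 0.614 and 0.283 in females, the last of which was dim, and it was dim on every array of the other glands. Syt1, the fast sensor of synapses, was at 0.684 in lacrimal, 0.513 in submandibular, 0.498 in parotid, 0.237 in meibomian and 0.217 in sublingual glands. Its lacrimal call (at least 1.81-fold, adjusted p = 0.000288) had a log2 difference of 1.01 that fell under 1 in 9 of the fits that left out 1 array, lowest at 0.87 without the male lacrimal A array, and was 0.69 after quantile normalization. Syt1 was dim on all 4 sublingual arrays and on 4 of the 6 meibomian arrays, so how low it was there cannot be read. Its sublingual call (-1.06 ± 0.23 for the values as read, adjusted p = 0.00211) became -0.95 without the female A array and -0.90 in set 2 alone (adjusted p = 0.110). Syt3 (-1.14 ± 0.22) and Syt6 (-1.15 ± 0.24) were lower in meibomian glands, but neither held the minimum of 1 throughout. Syt3 was at -0.87 in set 2 alone and -1.64 in set 1 alone. Syt6 was at -0.30 in set 1 alone, -0.91 after quantile normalization, -0.98 without the female C and -0.97 without the male B array.

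Of the SNAREs, which do the fusing, 19 of 21 probes were tested and 16 differed between glands. Vamp1, a vesicle SNARE of neurons and secretory cells, had the widest range. It read 2.50 and 1.95 in female and 2.47 and 2.48 in male parotid glands, above every array of the other glands. The nearest was the male lacrimal A array, which also rounds to 1.95. Submandibular arrays read 1.22, 0.937 and 1.18 in females and 1.46, 0.815 and 0.981 in males, sublingual arrays 0.729 and 1.23 in females and 0.540 and 0.946 in males. Lacrimal arrays ran from 0.287 to 1.95, with both set 1 arrays dim (0.294 and 0.287), and meibomian arrays from 0.208 to 0.396. Parotid glands were 3.57-fold higher (1.84 ± 0.36, adjusted p = 0.000473; 2.54 in set 1 alone) and meibomian glands 3.98-fold lower (-1.99 ± 0.31, adjusted p = 1.2e-05).

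The syntaxins divided by gland. Stx7, a SNARE of late endosomes and lysosomes, was at 13 in submandibular, 6.08 in sublingual, 3.09 in meibomian, 2.41 in parotid and 2.23 in lacrimal glands. Submandibular glands were 4.09-fold above the others (2.03 ± 0.15, adjusted p = 1.7e-09), and the sexes differed there, as described below. The parotid call of Stx7 (-1.0 ± 0.17) sat on the minimum difference and was under the minimum in 12 of the fits without 1 array, at its smallest -0.94 without the female parotid B array, and -0.97 after quantile normalization. Stx11, a syntaxin of lytic granules in immune cells, was 4.01-fold higher in lacrimal glands (4.87 against 1.10 to 1.32 in the other glands; 2.0 ± 0.18, adjusted p = 2.0e-08). Lacrimal arrays of Stx11 began at 2.85 and those of other glands ended at 3.62, in a female submandibular array. Stx18, a SNARE of the endoplasmic reticulum, was 2.09-fold higher in lacrimal (1.07 ± 0.15) and 2.71-fold lower in meibomian glands (-1.44 ± 0.15); the lacrimal value was just under 1 without the female A array, 0.90 without the male A array, 0.99 after quantile normalization and 0.65 in set 1 alone. Stx4a, a syntaxin of the plasma membrane, and Stx12, of endosomes, were higher in meibomian glands, by 3.43-fold (1.78 ± 0.28, adjusted p = 1.5e-05) and 2.26-fold (1.18 ± 0.19, adjusted p = 1.8e-05). Every meibomian array of Stx4a (4.37 to 7.61) lay above all others, which ended at 3.79. Stx3, the syntaxin of apical membranes, was at 0.666 in submandibular glands and dim on every parotid array; the submandibular level was at least 1.62-fold higher (adjusted p = 0.000257), and its log2 difference of 1.03 fell to 0.96 without the male submandibular C array, to 0.96 without the female parotid A array, to 0.98 without the male lacrimal B array and to 0.99 in set 2 alone.

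Vamp8, the main SNARE of zymogen granules in exocrine cells, was at 36.5 in submandibular, 33.9 in meibomian, 29.3 in lacrimal, 24.7 in sublingual and 14.7 in parotid glands. The parotid level was 2.09-fold lower (-1.06 ± 0.27, adjusted p = 0.0045). This became -0.90 without the female A and -0.81 without the male A array of the parotid gland, -0.97 with the array set as a block and -0.94 in set 2 alone. The 2 probes of Vamp5 did not behave alike: Vamp5 (probe 2) was 2.27-fold lower in lacrimal glands (-1.18 ± 0.13, adjusted p = 3.7e-07), below every array of the other glands, while Vamp5 (probe 1) was called in none. Snap23, Snap25, Snap29, Stx5a, Stx6, Stx8, Vamp2, Vamp4 and Vamp7 were not called in any gland. Snap23, the partner of syntaxins at the plasma membrane outside neurons, ranged from 5.44 in meibomian to 12.9 in submandibular glands, and the neuronal Snap25 from 0.966 in lacrimal to 1.65 in submandibular glands.

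Of the syntaxin binding proteins, 2 of 4 were tested. Stxbp3, the partner of Stx4a, read 9.12, 9.52 and 9.53 in female and 11.5, 9.72 and 9.10 in male meibomian glands, above every array of the other glands, which ended at 7.14. Submandibular arrays read 5.30, 3.68 and 3.87 in females and 7.14, 4.32 and 4.32 in males, sublingual arrays 5.08 and 3.68 in females and 5.75 and 4.95 in males, parotid arrays 3.45 and 3.09 in females and 2.46 and 3.34 in males, and lacrimal arrays 5.78, 2.99 and 2.55 in females and 5.59, 3.19 and 2.66 in males. The meibomian level of Stxbp3 was 2.46-fold higher (1.30 ± 0.18, adjusted p = 2.0e-06). Stxbp2, the partner of Stx3 and Stx11, was not called and missed the F test (adjusted p = 0.0510), with gland means from 1.73 to 2.64.

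The exocyst, a tether of vesicles at the plasma membrane, had 3 subunits on the array. Exoc7, the subunit that binds membrane lipid, read 1.25, 1.04 and 0.878 in female and 1.32, 0.884 and 0.842 in male meibomian glands, below every other array, of which the lowest was a female submandibular array at 1.33. The other submandibular arrays read 1.64 and 4.10 in females and 3.01, 2.32 and 3.91 in males, and the sublingual, parotid and lacrimal arrays ran from 2.37 to 4.10. The meibomian level was 2.78-fold lower (-1.48 ± 0.19, adjusted p = 1.0e-06). In the arrays of set 1 alone the difference was -0.92. Exoc2 and Exoc4 were not called, with gland means from 0.737 to 1.37 and from 0.406 to 0.678.

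All 5 Arf GTPases, which recruit coats at the Golgi and the plasma membrane, passed the filter, and 1 was called. Arf4, an Arf of the early Golgi, read 80.5, 95.3 and 48.4 in female and 133, 41.5 and 53.6 in male lacrimal glands. Submandibular arrays (36.4 to 65.9) and sublingual arrays (32.7 to 66.2) overlapped these, and parotid and meibomian arrays (22.5 to 29.3) did not. The lacrimal level was 2.03-fold higher (1.02 ± 0.21, adjusted p = 0.000371), and the value fell under the minimum of 1 in 5 fits that left out 1 array, lowest at 0.77 without the male lacrimal A array, and to 0.60 after quantile normalization. Arf2 and Arf6 missed the F test (adjusted p = 0.517 and 0.182).

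The Rabs of the endoplasmic reticulum and Golgi all passed the filter (9 of 9), and all 9 differed between glands, but few by the minimum difference. Rab34, a Golgi and lysosome Rab, was 2.69-fold higher in meibomian glands (1.43 ± 0.18, adjusted p = 5.0e-07), with every meibomian array (3.58 to 5.30) above all others. Rab33b, a Golgi Rab that also acts in autophagy, was high in male lacrimal glands and is described with the sexes below. Rab1a, which takes vesicles from the endoplasmic reticulum to the Golgi, ran from 43.4 in meibomian to 97.7 in lacrimal glands and Rab2a from 34.7 to 61.5 in the same glands, with no call in either.

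The Rabs of endosomes, lysosomes, apical traffic and lysosome-related organelles held the largest differences. Rab32, which serves lysosome-related organelles such as melanosomes and mitochondria, read 99.6 and 106 in female and 85.7 and 80.4 in male parotid glands. Sublingual arrays read 23.7 and 38.4 in females and 30.5 and 25.7 in males. Submandibular arrays read 3.83, 6.23 and 4.73 in females and 4.0, 5.22 and 2.73 in males. Lacrimal arrays read 1.89, 4.97 and 1.92 in females and 2.26, 2.47 and 2.0 in males, and meibomian arrays 2.12, 1.85 and 2.09 in females and 2.11, 2.13 and 2.18 in males. Parotid and sublingual glands overlapped with no other gland, and only the lacrimal and meibomian glands did not differ past the threshold (adjusted p = 0.399). Against the mean of the others the parotid level was 18.4-fold higher (4.21 ± 0.21, adjusted p = 4.4e-12) and the sublingual level 4.34-fold higher (2.12 ± 0.21, adjusted p = 2.5e-07). The submandibular level was 2.50-fold, the lacrimal level 5.15-fold and the meibomian level 6.23-fold lower.

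Rab38, the close relative of Rab32 that carries melanosome enzymes in pigment cells, was high in another gland. It read 25.1, 20.2 and 21.0 in female and 21.4, 21.7 and 23.2 in male meibomian glands, 0.804 to 1.55 in submandibular, 1.51 to 2.98 in sublingual, 1.55 to 2.39 in parotid and 2.20 to 4.46 in lacrimal glands. Meibomian arrays lay far above all others. The meibomian level was 11.8-fold higher (3.56 ± 0.14, adjusted p = 1.1e-14) and the submandibular level 3.70-fold lower (-1.89 ± 0.14, adjusted p = 1.5e-09). Of 6 melanocyte markers 2 were on the array, and their summed level was 8.07 to 11.5 in meibomian glands, 1.43 to 8.05 in lacrimal glands and at most 1.53 in the salivary glands. Dct alone was at 6.05 in meibomian glands and 0.205 to 0.340 elsewhere. The part of melanocytes in the level of Rab38 was not tested.

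Rab17, a Rab of apical traffic in polarized epithelium, was high in the 3 salivary glands and low in lacrimal and meibomian glands. Its gland means were 8.69 in submandibular, 5.73 in sublingual, 5.33 in parotid, 1.19 in lacrimal and 0.438 in meibomian glands. Sublingual glands did not differ past the threshold from submandibular (adjusted p = 0.100) or parotid glands (0.844). Against the mean of the others the folds were 4.35 higher (submandibular), 2.59 higher (sublingual), 2.36 higher (parotid), 2.76 lower (lacrimal) and 9.62 lower (meibomian), with adjusted p from 5.6e-05 to 1.5e-12.

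Rab4a, a Rab of fast recycling from endosomes, was dim on every meibomian array (0.0996 to 0.296) and between 1.68 and 5.73 on every array of the other glands. Its gland means were 4.22 in lacrimal, 3.39 in sublingual, 2.67 in submandibular, 2.25 in parotid and 0.169 in meibomian glands. The meibomian level was at least 10.4-fold lower (adjusted p = 7.2e-12) and the lacrimal level at least 2.70-fold higher (adjusted p = 1.5e-05), with a log2 difference of 1.63 that was 1.03 in set 1 alone. The dim meibomian level lowers the mean of the others, so the lacrimal and sublingual differences are in part differences from meibomian glands. The sublingual call (1.24 ± 0.28, adjusted p = 0.00301) rested on the set 1 arrays, at 5.73 in females and 5.16 in males against 1.75 and 2.56 in set 2: the difference was 0.81 (adjusted p = 0.0771) without the female A array, 0.99 without the male A array and 0.74 in set 2 alone. Rab9, a Rab of late endosomes, had opposite extremes. It was 3.44-fold higher in meibomian glands (1.78 ± 0.19, adjusted p = 6.0e-08; arrays at 10.0 to 17.2) and 2.91-fold lower in parotid glands (-1.54 ± 0.22, adjusted p = 1.2e-05; 1.54 to 3.61), and neither overlapped with other glands.

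Rab5a, the Rab of early endosomes, had the same extremes as Rab9 with smaller differences, 2.06-fold higher in meibomian (1.04 ± 0.21) and 2.03-fold lower in parotid glands (-1.02 ± 0.24). Neither value kept the minimum of 1 throughout. The parotid difference was -0.81 without the female A array, -0.76 without the male A array of that gland, between -0.98 and -1.0 without 1 of 5 others (female or male submandibular A, male sublingual B, female or male lacrimal A), -0.95 after quantile normalization and -0.75 in set 2 alone. The meibomian difference was 0.97 without the male parotid A array and 0.99 without the female one, just under 1 without the male submandibular B or the male lacrimal B array, and 0.85 in set 2 alone. Of Rab10os, probe 2 was 3.37-fold lower in meibomian glands (Rab10os (probe 2): -1.75 ± 0.27, adjusted p = 8.1e-06), a value of -0.52 in set 1 alone. For the other, Rab10os (probe 1), the gland means ranged from 0.370 to 0.410. Whether the array reads strand was not given in the sources used here, so signal of Rab10os and Rab10 cannot be told apart.

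**Figure D3:**
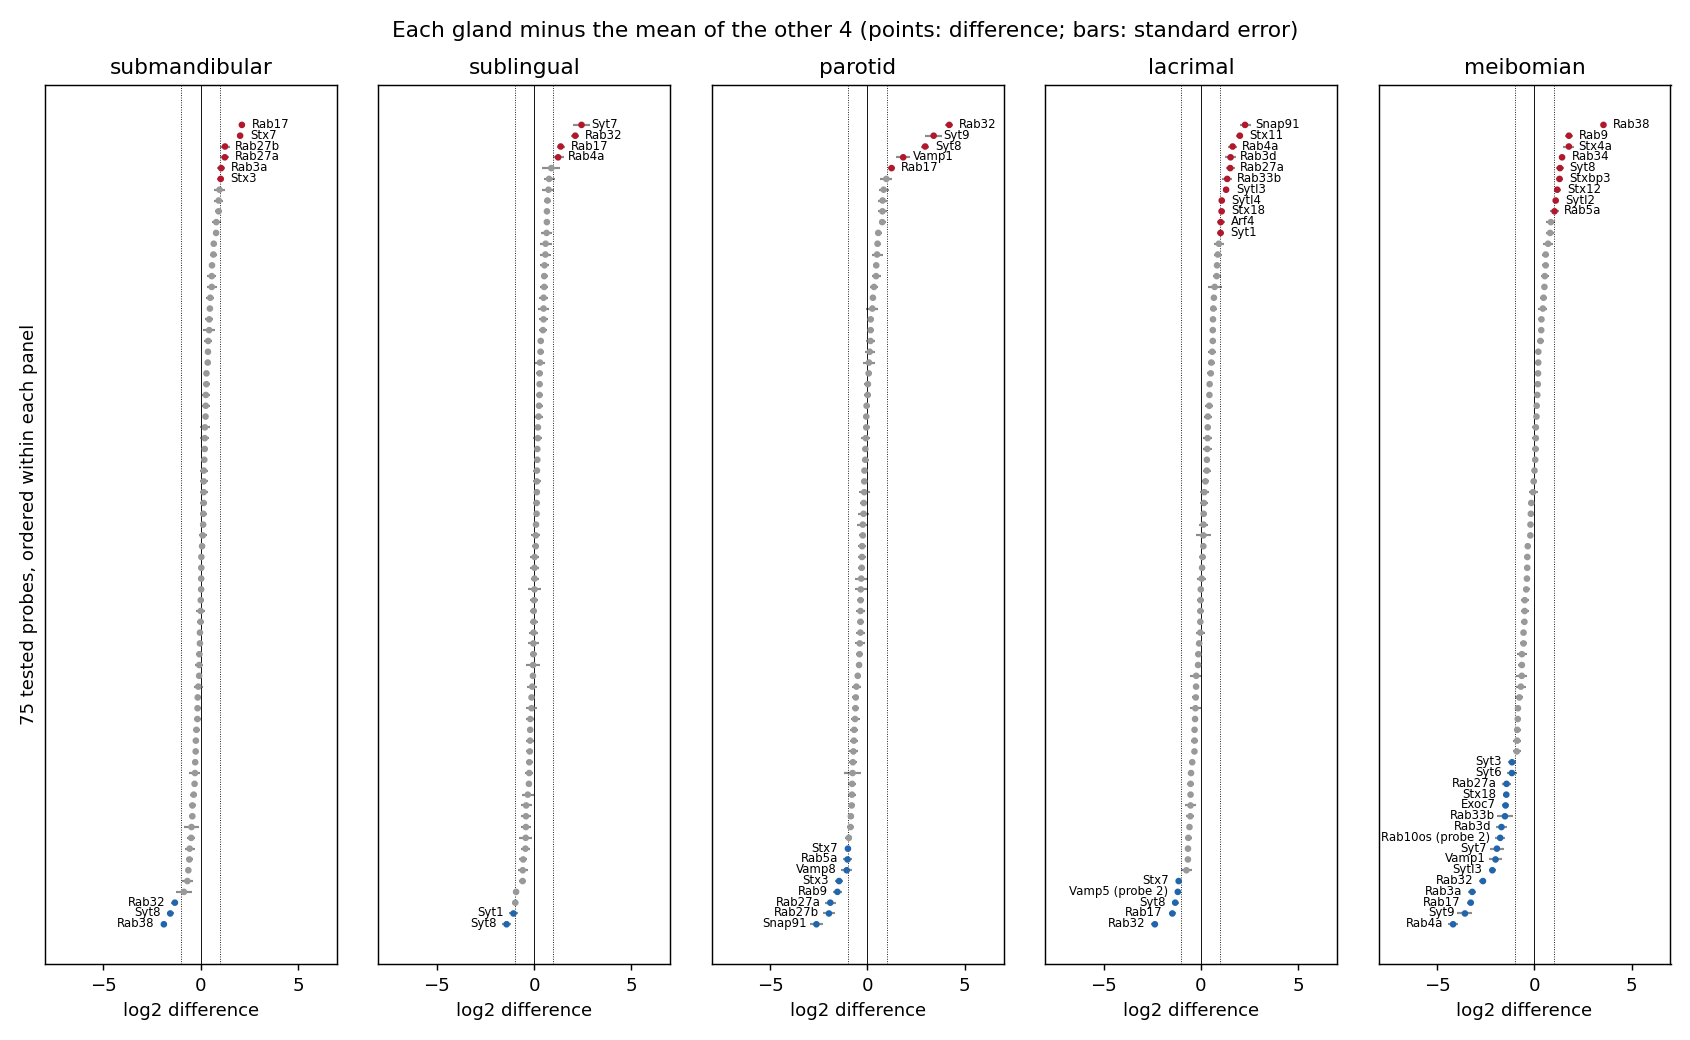
Log2 difference (x axis) of each of the 75 tested probes between a gland and the mean of the other 4, ordered within each panel, with standard errors. Coloured points are called (red higher, blue lower; dotted lines at the minimum difference of 1). The longest tails are Rab32, Syt9 and Syt8 in parotid glands, Rab38 upward and Rab4a, Syt9, Rab17 and Rab3a downward in meibomian glands. Syt7, Syt8 and Syt9 passed the filter only through glands in which they were high, so their colours are not read as results.

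Few of the members differed between males and females, and those that did were in lacrimal and submandibular glands. In lacrimal glands 5 of 75 (6.67%) differed at an adjusted p under 0.05 (3 higher and 2 lower in males), against 5.43% of all probes. In submandibular glands it was 2 (2.67%) against 2.61%. Over the mean of the 5 glands 1 member differed (1.33%) against 1.28%. By limma no member was called in sublingual (all probes 0.208%), parotid (0.0244%) or meibomian glands (0.0366%), where 1, 2 and 0 members had an unadjusted p under 0.05. These shares are near their backgrounds. Letters A, B and C paired the male and female arrays of a gland. With the pair as a block, 12 members were called in lacrimal glands (13.5% of all probes), 6 in submandibular glands (7.29%) and 5 over the mean of glands (4.04%), and again 0 in the other 3 glands. Whether the difference between the sexes itself varied with the gland was tested by an F test, which called 3 members (Snap91, Rab17 and Rab33b; 4%) against 2.66% of all probes, and 9 with the block (7.08% of all probes).

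Snap91, the clathrin adaptor AP180, known from the recycling of synaptic vesicles, showed the largest difference. It read 10.7, 9.86 and 13.9 in female lacrimal glands and 0.397, 0.193 and 0.452 in male lacrimal glands, the last 2 of them dim. The sexes did not overlap there. With 2 of 3 male arrays dim no fold is given, and the log2 difference of the values as read was -5.12 ± 0.50 (adjusted p = 4.8e-07). The difference was -5.67 within array set 1 and -4.85 within set 2. In submandibular glands Snap91 read 1.88, 1.71 and 0.752 in females and 0.918, 0.795 and 0.384 in males, which overlapped (-1.04 ± 0.50, adjusted p = 0.494; 0.0108 with pairs as a block). Sublingual arrays read 0.710 and 0.627 in females and 0.544 and 0.388 in males, and meibomian arrays 0.361 to 0.404 in both sexes. All 4 parotid arrays were dim. The sex difference varied between glands (F test adjusted p = 0.000318). The call of Snap91 in lacrimal against other glands (at least 3.76-fold higher) covers both sexes, of which only the females were high. The call over the mean of glands (-1.31 ± 0.24, adjusted p = 0.0053) was lost within set 2 alone (-1.19, adjusted p = 0.0963). It came mostly from lacrimal glands (-5.12). The difference was -1.04 in submandibular, -0.54 in sublingual, 0.08 in parotid and 0.06 in meibomian glands, so it is not a general difference between the sexes.

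Rab33b ran the other way. It read 52.3, 20.6 and 50.3 in male lacrimal glands against 6.24, 2.97 and 5.35 in females, with no overlap. Males were 8.17-fold higher (3.03 ± 0.43, adjusted p = 0.000225). In submandibular glands females read 7.5, 5.73 and 8.75 and males 7.61, 4.95 and 8.74; sublingual arrays read 3.88 and 7.15 in females and 3.56 and 7.60 in males; parotid arrays read 5.57 and 8.58 in females and 5.49 and 10.2 in males. In each of these groups the lowest array was that of set 1. In meibomian glands only the set 1 arrays had a value (2.72 and 2.70), since the 4 others carried the code for a missing spot and were dropped from the fit. The call of a lower meibomian level (-1.51 ± 0.40, adjusted p = 0.00306) fell just under the minimum with the set as a block. The F test for Rab33b (adjusted p = 0.0198) was lost in 5 alternatives. It missed the threshold without the female B array (0.0791), the male A array (0.0750) or the male C array (0.0719) of the lacrimal gland and without both lacrimal C arrays (0.130). With the missing code raised to the floor instead, its adjusted p became 1, and the lacrimal difference stayed at 3.03 but with an adjusted p of 0.398.

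Rab17 was lower in male than in female lacrimal glands. Females read 2.96, 1.63 and 2.44 and males 0.686, 0.523 and 0.670, with no overlap. Males were 3.66-fold lower (-1.87 ± 0.30, adjusted p = 0.000323), with -1.63 in set 1 and -1.99 in set 2, and the adjusted p was 0.0565 when the lacrimal arrays were fitted alone. In submandibular glands females read 5.88, 6.76 and 10.1 and males 10.4, 8.03 and 12.9, which overlapped. Sublingual arrays read 2.68 and 6.93 in females and 6.76 and 8.59 in males, parotid arrays 4.75 and 5.18 in females and 5.58 and 5.88 in males, and meibomian arrays 0.449, 0.478 and 0.524 in females and 0.426, 0.392 and 0.377 in males. The sex difference of Rab17 varied between glands (F test adjusted p = 0.00452).

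The other lacrimal calls were smaller. Rab23, a Rab of cilia and Hedgehog signalling, was dim on all female lacrimal arrays (0.216, 0.360 and 0.289) and read 0.433, 0.680 and 0.651 in males, without overlap. Males were at least 1.39-fold higher (1.03 ± 0.24, adjusted p = 0.0105), and without the female A array the difference was 0.84 (adjusted p = 0.0741). The call was also lost in set 2 alone (adjusted p = 0.0636), with array weights (0.122) and with the lacrimal arrays fitted alone (0.441). On the other arrays Rab23 read 0.242 to 0.468 in submandibular, 0.315 to 0.404 in sublingual, 0.349 to 0.472 in parotid and 0.445 to 0.610 in meibomian glands, and in submandibular glands every male array (0.365 to 0.468) lay above every female array (0.242 to 0.353) without a call. Vamp2, a vesicle SNARE of synapses and secretory granules, read 3.17, 2.6 and 3.45 in female and 8.95, 4.38 and 4.6 in male lacrimal glands. The sexes did not overlap, and males were 1.85-fold higher (0.89 ± 0.25, adjusted p = 0.0454). This call was lost in 24 of 38 alternative fits, among them most of those that left out 1 array, and the adjusted p was 0.214 with a difference of 0.56 without the male A array. Vamp2 elsewhere ran from 3.60 to 5.24 in submandibular, 2.20 to 3.46 in sublingual, 1.16 to 2.42 in parotid and 2.30 to 3.33 in meibomian glands. In lacrimal glands the summed B and plasma cell markers were 40.7 to 81.1 in males and 12 to 33.9 in females. The sebaceous and meibomian markers summed to 11.7 to 14.7 in males and 6.45 to 11.3 in females. This sum was mostly Scd1 (2.59 to 9.19) and Mc5r (2.37 to 7.58), and is not read as a level of such cells. Elovl4, Elovl3 and Scd3 were at 0.325, 0.344 and 0.364 in lacrimal glands, against 126, 102 and 41.3 in meibomian glands. The part of these cells in the differences was not tested.

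In submandibular glands Stx7 and Stx11 went in opposite directions. Stx7 read 8.77, 6.68 and 7.70 in females and 31.9, 18 and 18.3 in males, without overlap. Males were 2.86-fold higher (1.52 ± 0.26, adjusted p = 0.00119; 1.43 in set 1 and 1.56 in set 2). Sublingual arrays of Stx7 read 6.07 and 4.35 in females and 8.65 and 5.98 in males, which overlapped, and parotid, lacrimal and meibomian arrays ran from 1.83 to 3.59. The F test for Stx7 was just above the threshold (adjusted p = 0.0542; 0.00266 with the block). Stx11 read 3.62, 2.49 and 1.31 in females and 0.941, 0.575 and 0.818 in males, without overlap, and males were 2.99-fold lower (-1.58 ± 0.32, adjusted p = 0.00605). The difference was -1.25 (adjusted p = 0.0611) without the female A array and -1.38 (0.0547) without the male B array, and the adjusted p was 0.285 in set 2 alone and 0.127 with the submandibular arrays fitted alone. Lacrimal arrays of Stx11 read 7.25, 5.20 and 5.87 in females and 6.24, 2.85 and 3.40 in males, which overlapped, and the sublingual, parotid and meibomian arrays ran from 0.885 to 1.43. In the same glands the summed granular duct markers were 369 to 488 in females and 625 to 738 in males, the skeletal muscle markers 3.33 to 5.12 and 23.0 to 28.3, the smooth muscle and myoepithelial markers 39.6 to 66.7 and 117 to 231, the sebaceous and meibomian markers 33.3 to 53.1 and 9.93 to 10.4, and the T cell markers 3.30 to 4.94 and 2.56 to 2.91. The sebaceous and meibomian sum was mostly Scd1, which ran from 8.30 to 51.9 over these arrays, and is not read as a level of such cells. Elovl4 and Scd3 were dim on all of the arrays, and Elovl3 and Mc5r reached at most 0.621 and 0.690. Th was at 193 to 216 in females and 141 to 153 in males, while the other 10 nerve and Schwann cell markers (19.9 to 23.3 and 18.6 to 22.5) overlapped. The part of these tissues in the differences was not tested.

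With pairs as a block, the further calls in submandibular glands were Snap23 (0.88, adjusted p = 0.0022), Rab33a (1.41, 0.00113), Snap91 and Rab20 (-0.73, 0.0271). Rab33a, a Golgi Rab, read 0.519, 0.681 and 0.346 in females and 1.51, 1.83 and 0.827 in males, without overlap. In lacrimal glands the further calls were Sytl3 (-0.92, adjusted p = 0.00291), Stx6 (-0.73, 0.00897), Rab18 (-0.70, 0.0152), Sytl2 (0.78, 0.0249), Rab33a (0.67, 0.0417) and Rab1b (-0.53, 0.0462). Syt8 is also in the count of lacrimal calls with the block. It was dim there on all but the male C array and the sexes overlapped, so its call is not read as a result. Without the block none of these further calls passed the threshold.

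**Figure D4:**
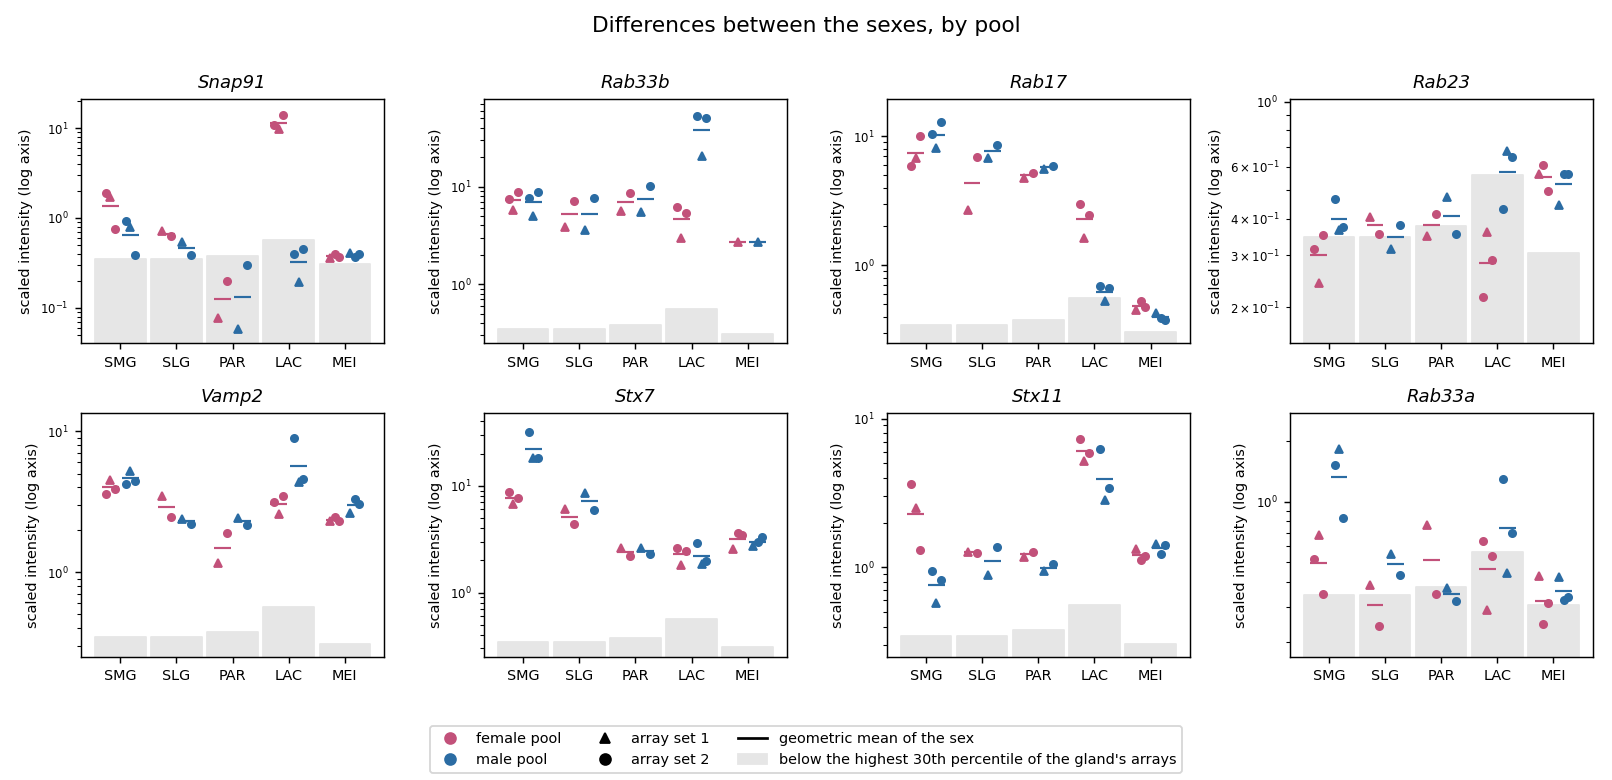
Scaled intensity (log axis) of 8 genes on every array, with the gland codes, symbols and grey area as in the plot of large gland differences. Female and male lacrimal points are apart for Snap91 (females at 9.86 to 13.9, males at 0.193 to 0.452), Rab33b, Rab17, Rab23 and Vamp2, and submandibular points for Stx7, Stx11 and Rab33a, of which Rab33a was called with pairs as a block alone.

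The remaining 15 probes did not pass the filter on dim values and were not tested: Rab3b, Rab3c, Rab37, Rab11fip2, Stx1a, Stx2, Stxbp4, Stxbp5, Syt2, Syt4, Syt5, Syt10, Syt11, Syt12 and Syt13. Among them are granule Rabs (Rab3b, Rab3c and Rab37) and most synaptotagmins. Stx2, a syntaxin of the plasma membrane in acinar cells, was missed by the filter for its meibomian arrays: there it was dim on those of set 1 and above the limit on the others, with a median of 1.73 and a highest value of 2.59. Both lacrimal C arrays were above the limit as well (0.595 and 0.611, with a lacrimal median of 0.245), and its highest value in the 3 salivary glands was 0.188. Syt5 reached 3.27 on 1 submandibular array and at most 0.702 in any other gland.

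Other genes of the pathway, from a list of 121 genes of fusion, coats, tethers and Rab regulation that are not members, are given for comparison. Of these, 75 were on the array and 68 (69 probes) were tested, and 61 probes (88.4%) differed between glands, against 80.6% of all probes. Meibomian glands had 6 higher and 23 lower (42% of 69, against 37.9% of all probes), parotid 5 and 5 (14.5% against 17.1%), lacrimal 7 and 3 (14.5% against 20.2%), submandibular 3 and 5 (11.6% against 12.3%) and sublingual 4 and 0 (5.8% against 11.2%). No share is read as a result about the list. The median difference in meibomian glands was -0.40, where that of all probes was -0.09. Sv2a, a membrane protein of synaptic vesicles and granules (-3.37 ± 0.23), Unc13b, a primer of fusion (at least 6.99-fold lower), and Sec16b, a scaffold of export sites on the endoplasmic reticulum (at least 4.64-fold lower), led the lower genes in meibomian glands. In parotid glands Doc2g (3.67 ± 0.24), Rims2, a scaffold at release sites (3.63 ± 0.32), Sec16b (at least 9.64-fold) and Synj2 (3.21 ± 0.21) were higher, and Napa, a cofactor in the recycling of SNAREs, was lower (-1.38 ± 0.23). Rims2 was at 145 in parotid, 36.4 in sublingual, 11.1 in submandibular, 9.96 in lacrimal and 4.6 in meibomian glands. In lacrimal glands Mlph, the link between Rab27a and myosin (at least 3.57-fold), Scamp5 (at least 2.27-fold) and the coat subunit Sec24d (1.46 ± 0.17) were higher. In submandibular glands Unc13b (at least 6.11-fold), the Arf activator Cyth3 (2.64 ± 0.22) and Cadps2, a priming factor of granules (1.29 ± 0.17), were higher, and in sublingual glands Sec23b, a coat subunit (2.30 ± 0.19). Between the sexes 1 of these genes was called in any gland: Sv2a was higher in male than in female lacrimal glands (1.54 ± 0.40, adjusted p = 0.0260).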

How the data were processed

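The values are linear intensities, 1 for each probe on each array, as deposited by the authors, whose processing is not given in the sources used here. From the values, they were scaled within each array and had a background subtracted. Exactly -1 (0.821% of cells) was taken as a missing spot and left out. Values below 0.0234, the 1st percentile of positive values, were set to it before log2, with no further normalization, since array medians spanned 0.0403 on the log2 scale. A probe was kept if it reached its array's 30th percentile throughout 1 or more of the 10 sex-by-gland groups (8191 of 10500 probes). A group with every array below that percentile is dim, and a fold against it is a bound, with each dim array set at its 30th percentile.

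The fit used limma 3.58.1 under R 4.3.3 on all 26 arrays, a mean for each of the 10 groups (16 residual degrees of freedom), two-sided, with Benjamini-Hochberg adjustment over all probes kept at 0.05. Sex differences are male minus female. The 5 gland comparisons share arrays. The number of arrays limits the precision, and p-values measure the spread between pools. Same-letter male and female arrays deviated together (9 pairs in the glands with 3 pools per sex, correlations 0.441 to 0.816, each the best of its gland). A fit with these pairs as a block is therefore given beside the unblocked one for the sex comparisons. The counts by role and the comparisons of 2 glands come from the unblocked fit. With the block (correlation 0.563) fewer members were called in every pair of glands. Between submandibular and lacrimal glands it called 15 instead of 29 of the 75 (23.6% of all probes with the block). The labels give the letters, and the pairing comes from the values. Array sets were found from the first component of deviations from group means.

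Symbols came from the platform annotation, and all 90 member probes matched RefSeq (GRCm38.p6) by Entrez identifier. The members, roles and lists were chosen with earlier results of these data known. Named genes are members called in a comparison, the granule exocytosis members, and up to 4 other pathway genes per direction and gland by size. Other floors, filters, normalization, array weights, sets of arrays and omitted arrays were tried.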

Additional observations from a re-analysis of the deposited data

Results flagged for a closer look

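The difference between the sexes varied between glands in 3 members, by limma's moderated F test over all 26 arrays. Snap91 had an adjusted p of 0.000318, with females far above males in lacrimal glands (log2 difference -5.12, male minus female). Rab17 had an adjusted p of 0.00452, with males lower in lacrimal glands (-1.87). Rab33b had an adjusted p of 0.0198, with males higher in lacrimal glands (3.03), but this test had an adjusted p of 1 with the missing code at the floor. It was run without the 4 meibomian arrays on which Rab33b was missing.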

How the results depend on the processing

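None of 80 calls reversed its direction in 3018 values from other settings. Of the 80, 3 are F tests of sex by gland, which have no direction. Of the values, 2074 came from leaving out 1 array, and 69, with no minimum difference, reuse the main fit and could not differ. With the replicate block of same-letter pairs, the members called for sex were 6 in submandibular and 12 in lacrimal glands, 5 over the mean of glands and 9 in the F test of sex by gland, and the block changed no count of a gland against the others, while 54 members instead of 64 passed the F test between glands (66.9% instead of 80.6% of all probes). Quantile normalization gave 9 in lacrimal glands and 6 in the F test, and array weights 4 in submandibular glands, 3 in lacrimal glands and 5 in the F test. Fitting a gland's arrays alone gave 1 in submandibular and 2 in lacrimal glands. The array set as a block gave 2 over the mean of glands, and set 2 alone gave 1 in submandibular glands, 3 in lacrimal glands and 0 over the mean of glands. With no minimum difference the gland calls were 22 (submandibular, 29.3% of members against 29.9% of all probes), 12 (sublingual, 16% against 21.7%), 36 (parotid, 48% against 35.9%), 41 (lacrimal, 54.7% against 48.4%) and 52 (meibomian, 69.3% against 67.4%). Leaving out 1 array gave 1 to 3 sex calls in submandibular glands, 3 to 7 in lacrimal glands and 1 to 2 over the mean of glands. The cause of these shifts was not tested, except that fewer arrays or a lower minimum change the test itself. Quantile normalization moved the median of all probes in lacrimal glands by -0.12, and that of the members from 0.14 to -0.10. Set 1 alone leaves no residual degrees of freedom and gave values without counts. The filter over measured cells and the fit without both lacrimal C arrays were chosen after seeing the data. Dim probes limit what can be read of Syt7, Syt9 and the 15 members not tested.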
